A study of Mus musculus with 16 samples.

Results

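The autophagy machinery and its receptors were followed as 42 genes, listed by symbol and matched to the gene symbols of the deposited expression table. All 42 were found among the 47643 genes of the table, and all 42 were among the 10628 genes with a mean level of at least 1 TPM (a level per gene, corrected for transcript length and given as a share of a fixed total) that were tested. They fall by role into initiation (5 genes), nucleation (6), membrane supply (6), conjugation (10), the LC3 family (5), receptors (8) and maturation (2). RNA-seq had been done on the tibialis anterior, a muscle of the lower hindlimb, of 16 mice labelled as male and C57BL6/J, 4 per group, namely WT at 6 months of age, UBR4 mKO at 6 months, WT at 24 months and UBR4 mKO at 24 months. UBR4 mKO mice had both alleles of Ubr4, which encodes a large ubiquitin ligase, flanked by loxP sites and carried the tamoxifen-inducible ACTA1-Cre, which acts in skeletal myofibers. WT controls had the same floxed alleles without Cre, and tamoxifen was given to both genotypes before the earlier age. The other cells of the muscle therefore keep Ubr4, and in whole muscle fewer cells of a type and less RNA per cell cannot be told apart. TPM values keep no record of sequencing depth, so the depth of each sample is unknown.

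In macroautophagy, cytoplasm or selected cargo is enclosed by a growing membrane, the phagophore, which closes into an autophagosome and fuses with the lysosome. The ULK1 kinase complex starts the process, the phosphatidylinositol 3-kinase complex marks the membrane with a lipid, ATG9A and the ATG2 proteins supply membrane, and ubiquitin-like conjugation reactions attach proteins of the LC3 and GABARAP family to it. Receptors such as p62, encoded by Sqstm1, hold ubiquitinated cargo or mitochondria to LC3. In skeletal muscle autophagy clears damaged mitochondria and proteins, and several of its genes are induced by FoxO factors and TFEB during wasting. The values here are mRNA levels, and neither protein nor autophagic flux was measured.

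Some libraries and totals stood apart before any comparison of the 42 genes. All 8 skeletal myofiber markers were above 0 in every library. Ubr4 ranged from 9.09 to 15.7 TPM in the WT and from 4.91 to 6.54 TPM in the UBR4 mKO at 6 months, and from 17.0 to 21.1 and 4.28 to 14.6 TPM at 24 months, so the groups did not overlap at either age. RNA of the mitochondrial genome made up 52.6 to 59.7% of all TPM in the WT at 6 months and 46.1 to 51.7% in the other 12 libraries, and TPM sums to the same total in every library. The median gene was 0.33 higher (log2) in the UBR4 mKO than in the WT at 6 months, and 0.079 higher after rescaling without the mitochondrial genes. Each comparison is therefore given on 2 scales: TPM as deposited, and TPM divided by median-of-ratios size factors, called scaled TPM below, which removes the shift of the median gene. The 6-month libraries labelled male held both Xist, from 0.711 to 23.8 TPM, and Y-linked RNA, while Xist was at most 0.0252 TPM at 24 months. Replicate 4 of the UBR4 mKO at 6 months had the highest Xist and 0.0730 TPM of the Y-linked gene Ddx3y, and replicate 3 of the UBR4 mKO at 24 months had low values of several long genes, Epg5 and Ulk2 among them. In that replicate the deviation of the 42 genes from the other 3 replicates had a Spearman correlation of -0.556 with the length of their longest transcript, a description over genes that share 1 library. Results that rest on these 2 libraries are given with and without them.

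At 6 months the UBR4 mKO muscle had higher TPM of many autophagy genes, but few of them moved away from the median gene. On TPM as deposited, 23 of the 42 genes rose in the UBR4 mKO (54.8%, against 43.7% of all genes tested) and 0 fell (1.15% of all genes), by limma with Benjamini-Hochberg adjustment over all genes tested. The median of the 42 genes was 0.28 on the log2 scale, 0.045 below the median of all genes, and 19 of the 42 lay above it. On scaled TPM 3 genes rose, Map1lc3a, Nbr1 and Wipi1 (7.14%, against 6.66% of all genes), and 4 fell, Atg9a, Atg4d, Ulk2 and Map1lc3b (9.52%, against 10.2%). Both shares of the 42 genes are thus close to those of all genes on the scaled values, and the TPM share is above that of all genes while the median gene of the 42 is below it. Leaving out 1 library moved the TPM count to 15 (without WT replicate 1), 14 (WT replicate 3), 12 (WT replicate 4) and 13 (UBR4 mKO replicate 4), and moved the scaled count of 7 to 3, 3, 1 and 3 (without WT replicates 1 to 4), 2, 4 and 2 (UBR4 mKO replicates 1 to 3) and 4 (without 24-month WT replicate 1, 3 or 4). Without the 2 libraries that stood apart 16 rose on TPM, and 3 rose and 6 fell on scaled TPM, and with the replicate number as a block the counts were 17 on TPM and 4 on scaled TPM. Dunn's test on the ranks called 9 on TPM and 0 on scaled TPM, and with 4 samples per group a rank test has little power to pass the adjustment. Rescaling without the mitochondrial genes in place of median-of-ratios scaling left Ulk2 (-0.21, adjusted p = 0.330), Map1lc3b (-0.14, adjusted p = 0.126) and Nbr1 (0.34, adjusted p = 0.0737) short of the threshold by limma, and Y-linked RNA as a covariate on scaled TPM left Wipi1 (adjusted p = 0.0522) and Nbr1 (adjusted p = 0.0541) short of it.

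**Figure D1:**
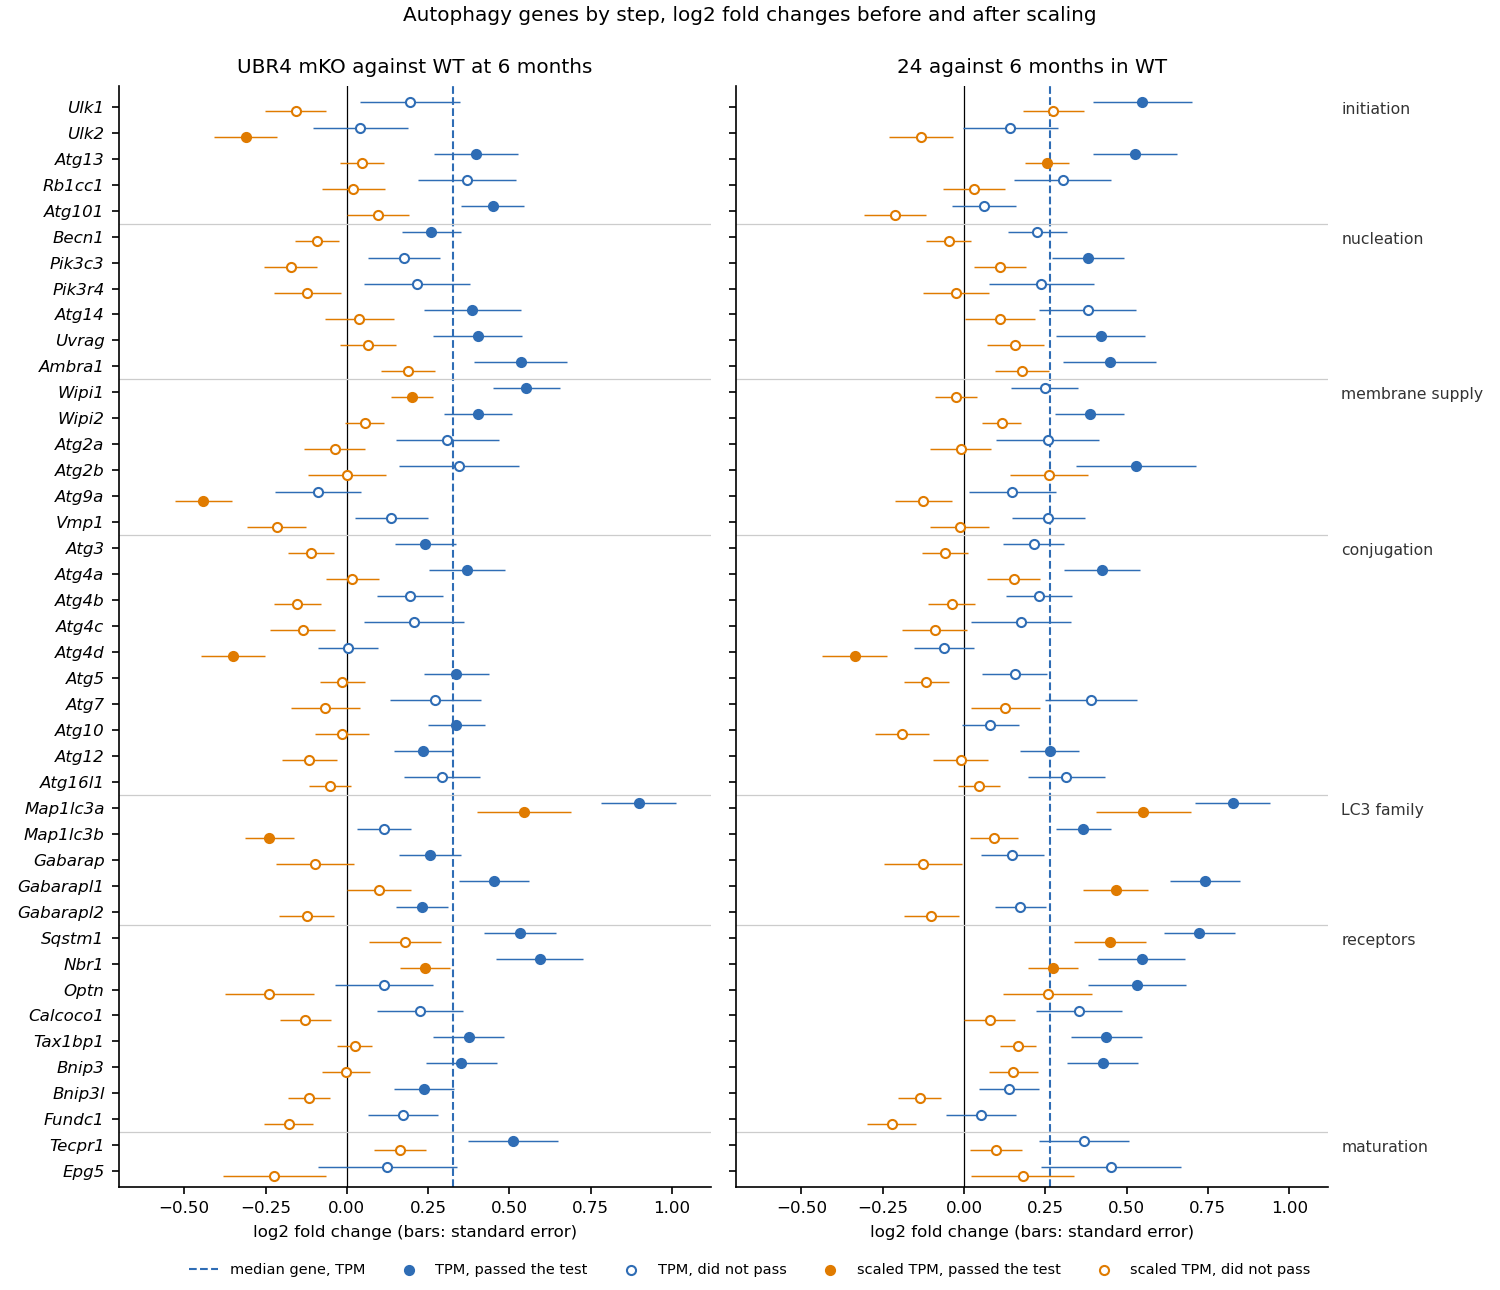
Log2 fold change (x axis) of each of the 42 genes (y axis, grouped by step) for UBR4 mKO against WT at 6 months and for 24 against 6 months in WT. Points are limma estimates with their standard error, blue for TPM as deposited and orange for scaled TPM, filled where the adjusted p is under 0.05, and the dashed line is the median gene on TPM (0.33 and 0.26). Map1lc3a lies to the right of the median gene in both comparisons, while Atg9a, Atg4d, Ulk2 and Map1lc3b lie to its left at 6 months.

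Markers of other cells and of muscle state differed between the same libraries. All 4 leukocyte markers tested of 8 listed (Cd68, Cd74, Adgre1 and Csf1r) rose in the UBR4 mKO at 6 months on both scales, and their list summed to 13.4 to 24.3 TPM in the WT and 44.7 to 107 TPM in the UBR4 mKO, with the T cell marker Cd3e at 0 in all 4 WT libraries. All 5 denervation genes tested of 6 listed, among them the acetylcholine receptor subunit Chrna1 and the myogenic factor Myog, also rose on both scales, from a sum of 19.4 to 27.1 TPM to one of 55.6 to 67.3 TPM. Of the fibroblast markers 3 of 6 rose on TPM and 1 on scaled TPM, of the endothelial markers 3 of 5 and 0, of the adipocyte markers 1 of 3 and 0, of the Schwann cell markers 0 on TPM with 2 of 5 falling on scaled TPM, and of the blood markers 0 of 5 on either scale. Of the 8 skeletal myofiber markers 3 rose on TPM, and on scaled TPM the fast myosin Myh1 rose by 0.49 while Myh4 (-0.32) and the troponin Tnnt3 (-0.37) fell. None of the 3 satellite cell markers passed the filter on low values, and their list summed to 1.02 to 1.46 TPM in the WT and 2.32 to 2.89 TPM in the UBR4 mKO. The part of these cells and of the state behind the denervation genes in the levels of the autophagy genes was not tested. Nerve supply was not measured here.

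Of the initiation genes, which encode the ULK1 kinase complex, 2 of 5 rose on TPM at 6 months and 1 fell on scaled TPM. Atg101, an adaptor of the complex and the initiation gene with the most mRNA by the mean over all 16 muscles, measured 28.6, 33.5, 24.6 and 25.1 TPM in the WT and 40.4, 36.5, 40.0 and 34.9 TPM in the UBR4 mKO. All 4 UBR4 mKO muscles lay above all 4 WT muscles, and the log2 difference was 0.45 ± 0.10 (SE, limma adjusted p = 0.00271) on TPM but 0.10 (adjusted p = 0.53) on scaled TPM. Atg13, the scaffold that joins ULK1 to its partners, measured 10.1, 12.5, 9.67 and 8.15 TPM in the WT and 12.0, 11.7, 13.8 and 15.6 TPM in the UBR4 mKO. The groups overlapped, and the log2 difference of 0.40 (limma adjusted p = 0.0213) shrank to 0.05 after scaling. Ulk2, the second kinase related to yeast Atg1, was level on TPM (log2 difference 0.04). Its scaled levels were 32.9, 33.2, 31.3 and 32.5 TPM in the WT and 24.8, 26.0, 25.9 and 28.0 TPM in the UBR4 mKO. The scaled groups did not overlap and differed by -0.31 ± 0.10 (SE, limma adjusted p = 0.0397), or -0.34 (adjusted p = 0.00783) without the 2 libraries that stood apart, but the call was lost without any single WT library, UBR4 mKO replicate 1, 2 or 3 or 24-month WT replicate 3, where the adjusted p reached 0.109.

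Nucleation genes had scaled differences from -0.17 to 0.19 at 6 months, and 2 of the 6 had an unadjusted limma p under 0.05. Becn1, the regulatory subunit beclin 1, was the most abundant of the 6 by the same mean, at 12.3, 13.8, 11.8 and 10.8 TPM in the WT and 13.6, 13.9, 14.6 and 16.1 TPM in the UBR4 mKO. The groups overlapped slightly, and the log2 difference was 0.26 (limma adjusted p = 0.029) on TPM and -0.091 on scaled TPM. Atg14 and Uvrag, which direct the kinase complex to different membranes, and Ambra1, an activator of beclin 1, also rose on TPM, by 0.38, 0.40 and 0.54. None of the 6 passed the test on scaled TPM. The lipid kinase subunits Pik3c3 and Pik3r4 did not pass on either scale.

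In membrane supply 1 gene rose and 1 fell on scaled TPM. Wipi1, which binds the lipid made by the kinase complex, measured 24.1, 27.4, 23.6 and 21.4 TPM in the WT and 35.9, 32.4, 36.3 and 36.6 TPM in the UBR4 mKO, a difference of 0.55 ± 0.10 on the log2 scale (SE, limma adjusted p = 0.00114). After scaling the groups still did not overlap, at 28.0, 27.3, 27.6 and 29.9 against 33.9, 30.9, 33.6 and 31.3 TPM, with a difference of 0.20 ± 0.06 (SE, limma adjusted p = 0.0454). That scaled call for Wipi1 was kept in only 5 of the 16 fits that left out 1 library, with adjusted p from 0.0224 to 0.131. It was lost without WT replicate 1, 2 or 3, any UBR4 mKO library of 6 months, 24-month WT replicate 1, 3 or 4, or 24-month UBR4 mKO replicate 2. Atg9a, the membrane-spanning scramblase carried by seed vesicles, had the most mRNA of this step by the mean over all 16 muscles and overlapped between the groups on TPM, at 32.3, 41.3, 32.6 and 26.5 in the WT and 25.7, 29.4, 29.9 and 40.0 in the UBR4 mKO. On scaled TPM it was lower in every UBR4 mKO muscle, at 24.2, 28.0, 27.6 and 34.3 against 37.6, 41.1, 38.2 and 37.1 TPM. The scaled difference was -0.44 ± 0.09 (SE, limma adjusted p = 0.00347), -0.53 (adjusted p = 0.000214) without the 2 libraries that stood apart, and between -0.53 and -0.37 with any 1 library left out, each time past the threshold. On TPM as deposited the Atg9a difference was -0.09 (adjusted p = 0.579), so its fall is relative to the median gene. The remaining members, Wipi2 (0.40 on TPM, passed), Atg2a, Atg2b and Vmp1, did not pass on scaled TPM.

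Conjugation had 5 of 10 genes called higher on TPM (Atg3, Atg4a, Atg5, Atg10 and Atg12, by 0.24 to 0.37) and 1 lower on scaled TPM. Atg4d, one of 4 ATG4 proteases that trim LC3 proteins and take them off membranes, had the most mRNA of the step by the same mean. It measured 22.8, 24.8, 24.0 and 21.5 TPM in the WT and 20.1, 23.0, 24.3 and 26.2 TPM in the UBR4 mKO, with overlapping groups and a log2 difference of 0.00 on TPM. On scaled TPM the values were 26.5, 24.7, 28.1 and 30.1 against 18.9, 21.9, 22.5 and 22.5, all 4 UBR4 mKO muscles below the WT, with a difference of -0.35 ± 0.10 (SE, limma adjusted p = 0.0247). The scaled call was lost without WT replicate 3 or 4 or UBR4 mKO replicate 1. Its relative Atg4a, on chromosome X, measured 19.1, 18.6, 14.2 and 13.1 TPM in the WT and 21.1, 19.8, 22.2 and 19.8 TPM in the UBR4 mKO. These groups did not overlap on TPM (0.37, limma adjusted p = 0.0197), but the scaled difference was 0.02.

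The LC3 family carried the largest difference among the 42 genes, and its members did not move alike. Map1lc3a, which encodes LC3A, measured 199, 185, 141 and 173 TPM in the WT and 315, 317, 380 and 285 TPM in the UBR4 mKO, or 174 ± 25.0 against 324 ± 40.3 (SD, n = 4). Every UBR4 mKO muscle was far above every WT muscle, and the difference was 0.90 ± 0.12 on the log2 scale (SE, limma adjusted p = 7.4e-05). On scaled TPM the levels were 232, 184, 165 and 242 in the WT against 296, 302, 352 and 244 in the UBR4 mKO, with the lowest UBR4 mKO muscle barely above the highest WT muscle. The scaled difference was 0.54 ± 0.15 (SE, limma adjusted p = 0.0181). It was 0.64 (adjusted p = 0.00178) without the 2 libraries that stood apart and 0.54 (adjusted p = 0.0134) with Y-linked RNA as a covariate, and of the fits that left out 1 library the call was lost in those without WT replicate 3 or UBR4 mKO replicate 3. Dunn's test gave an adjusted p of 0.168 for Map1lc3a on scaled TPM.

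Map1lc3b, which encodes LC3B, the form most used as an autophagosome marker, fell only relative to the median gene. It measured 56.5, 64.7, 54.4 and 51.4 TPM in the WT and 60.2, 60.2, 56.7 and 68.4 TPM in the UBR4 mKO, with a TPM difference of 0.12 (limma adjusted p = 0.251). On scaled TPM the WT muscles had 65.7, 64.5, 63.7 and 71.9 and the UBR4 mKO muscles 56.7, 57.4, 52.4 and 58.6. These scaled groups did not overlap and differed by -0.24 ± 0.08 (SE, limma adjusted p = 0.0402), a call that held in 7 of 16 fits with 1 library left out and was lost without any 6-month library but UBR4 mKO replicate 4, and without 24-month WT replicate 1 or 4. Rescaling without the mitochondrial genes gave -0.14 for Map1lc3b (adjusted p = 0.126).

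The GABARAP members, which act later in autophagosome closure and fusion, rose on TPM but not on scaled TPM. Gabarap measured 88.4, 92.9, 91.4 and 86.6 TPM in the WT and 106, 103, 99.6 and 123 TPM in the UBR4 mKO, and Gabarapl2 51.5, 56.2, 50.6 and 48.7 against 57.8, 60.5, 57.9 and 66.9 TPM. Both were higher in every UBR4 mKO muscle on TPM (0.26 and 0.23), and both scaled differences were below 0 (-0.098 and -0.12). Gabarapl1 measured 31.8, 31.6, 28.6 and 25.0 TPM in the WT and 42.7, 35.6, 35.8 and 46.3 TPM in the UBR4 mKO. It too was higher in every UBR4 mKO muscle, by 0.45 (limma adjusted p = 0.00449) on TPM and 0.10 (adjusted p = 0.534) on scaled TPM.

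The makeup of the family does not depend on the scaling, since each gene is given as a share of the 5 genes' summed TPM in the same muscle. That sum was 366 to 430 TPM in the WT and 576 to 630 TPM in the UBR4 mKO at 6 months. Map1lc3a made up 46.6, 43.0, 38.5 and 44.9% of it in the WT and 54.2, 55.0, 60.3 and 48.3% in the UBR4 mKO, or 43.2 ± 3.51% against 54.5 ± 4.92% (SD, n = 4). Map1lc3b made up 13.2 to 15.0% in the WT and 9.00 to 11.6% in the UBR4 mKO, and Gabarapl2 12.0 to 13.9% and 9.18 to 11.4%. For these 3 genes the groups did not overlap, whereas the shares of Gabarap (20.7 to 25.0% and 15.8 to 20.8%) and Gabarapl1 (6.51 to 7.81% and 5.68 to 7.86%) overlapped. The shares of a muscle sum to a fixed total, so a larger share of Map1lc3a by itself makes the others smaller. The lower shares of Map1lc3b and Gabarapl2 are therefore not separate results. At 24 months the sum was 520 to 639 TPM in the WT and 612 to 755 TPM in the UBR4 mKO, and Map1lc3a was again the larger share in every UBR4 mKO muscle, at 57.8, 55.4, 59.2 and 57.2% against 51.9, 51.4, 52.2 and 53.6%. Map1lc3b was again the smaller share, at 9.21 to 11.5% against 12.0 to 13.0%.

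**Figure D2:**
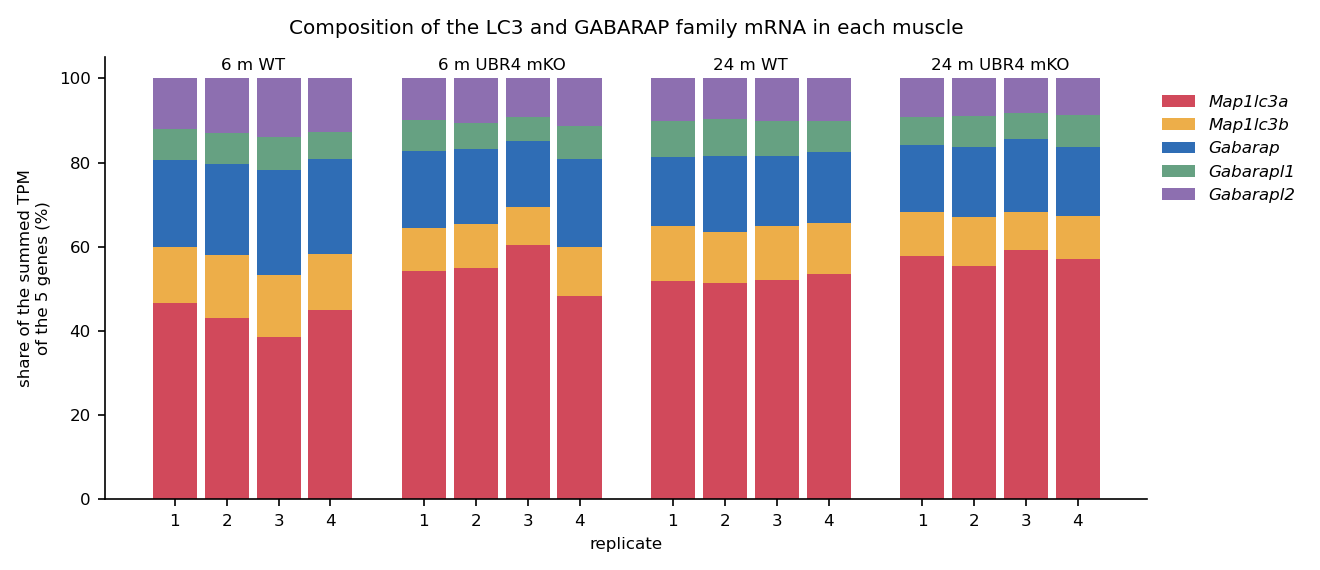
Share (y axis, %) of each of the 5 genes of the LC3 family in their summed TPM, 1 bar per muscle (x axis, replicates 1 to 4 of each group). The Map1lc3a share is 38.5 to 46.6% in the 6-month WT, 48.3 to 60.3% in the 6-month UBR4 mKO, 51.4 to 53.6% in the 24-month WT and 55.4 to 59.2% in the 24-month UBR4 mKO.

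Receptors were called higher on TPM for 5 of 8 genes at 6 months (Sqstm1, Nbr1, Tax1bp1, Bnip3 and Bnip3l), and only Nbr1 also rose on scaled TPM. Sqstm1, the most abundant receptor, measured 207, 207, 162 and 175 TPM in the WT and 293, 252, 245 and 293 TPM in the UBR4 mKO. The groups did not overlap on TPM, at 188 ± 22.9 against 271 ± 25.9 (SD, n = 4). On scaled TPM they did, at 241, 206, 190 and 244 against 276, 240, 226 and 251, with a difference of 0.18 (limma adjusted p = 0.286) after 0.53 ± 0.11 (SE, adjusted p = 0.00202) on TPM. Nbr1, a receptor related to p62 that also binds ubiquitin and LC3, measured 18.9, 23.3, 18.0 and 16.2 TPM in the WT and 28.4, 25.7, 28.8 and 31.9 TPM in the UBR4 mKO. It did not overlap on either scale, with scaled levels of 22.0, 23.2, 21.1 and 22.6 against 26.8, 24.5, 26.6 and 27.4 TPM. The difference was 0.59 ± 0.13 (SE, limma adjusted p = 0.00335) on TPM and 0.24 ± 0.08 (SE, adjusted p = 0.0448) on scaled TPM, where the call held in 5 of 16 fits with 1 library left out, with adjusted p from 0.00933 to 0.108. The scaled call for Nbr1 was lost without any 6-month WT library, UBR4 mKO replicate 1, 3 or 4, 24-month WT replicate 1, 3 or 4, or 24-month UBR4 mKO replicate 2. Nbr1 was 4.03 to 4.54% of the receptors' summed TPM in the WT and 4.70 to 5.09% in the UBR4 mKO.

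Among the receptors that sit on mitochondria, Bnip3 rose by 0.35 and Bnip3l by 0.24 on TPM, with scaled differences of -0.0019 and -0.12, and Fundc1 passed on neither scale. Optn, which binds ubiquitinated cargo, and Calcoco1 passed on neither scale. Of the maturation genes, Tecpr1, which tethers autophagosomes to lysosomes, rose by 0.51 (limma adjusted p = 0.00926) on TPM and had a scaled difference of 0.16. Epg5, a further tether, measured 6.22, 8.47, 6.13 and 4.76 TPM in the WT and 6.65, 6.02, 6.72 and 8.12 TPM in the UBR4 mKO, and the groups overlapped.

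The comparison of 24 with 6 months in WT shows which of these genes differ between the 2 ages in the controls. The same libraries also differ in sex-linked RNA. Summed Y-linked RNA was 4.36 to 25.5 TPM in the younger WT muscles and 34.7 to 40.5 TPM in the older ones. Xist separated the ages without overlap in both genotypes. In WT the Y-linked covariate thus largely follows age, and calls kept or lost with it do not tell the 2 apart. Age and sex-linked RNA were not tested separately. On TPM 17 of the 42 genes were higher at 24 months (40.5%, against 24.0% of all genes tested) and 0 lower (1.07% of all genes), with a median of 0.33 against 0.26 for all genes. On scaled TPM 5 were higher, Map1lc3a, Gabarapl1, Sqstm1, Nbr1 and Atg13 (11.9%, against 4.44% of all genes), and 1 was lower, Atg4d (2.38%, against 5.33%). The receptors' median lay 0.168 above that of all genes, that of nucleation 0.116 above, that of the LC3 family 0.102 above and that of conjugation 0.042 below. The TPM count was 31 without 6-month WT replicate 2, 10 without replicate 3, 7 without replicate 4 and 11 without 24-month WT replicate 1 or 4. The scaled count of 6 was 3 without 6-month WT replicate 1, 1 without replicate 3, 3 without replicate 4, 2 without 24-month WT replicate 1, 3 without its replicate 3, 1 without its replicate 4 and 11 without 24-month UBR4 mKO replicate 3, which enters only the shared estimate of the spread. Without the 2 libraries that stood apart, neither of them in these groups, the counts were 25 on TPM and 11 on scaled TPM, and with the replicate number as a block 13 and 3. Dunn's test called 0 on both scales, and rescaling without the mitochondrial genes left Atg13 (0.34, adjusted p = 0.0632) and Nbr1 (0.36, adjusted p = 0.0822) short of the threshold by limma, with larger differences than on scaled TPM.

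Gabarapl1 gave the steadiest age difference of the LC3 family. Its scaled levels were 37.0, 31.5, 33.5 and 35.0 TPM at 6 months and 47.1, 54.5, 44.1 and 44.0 TPM at 24 months in WT. All 4 older muscles lay above all 4 younger ones, and the difference was 0.47 ± 0.10 (SE, limma adjusted p = 0.00838) on scaled TPM and 0.74 ± 0.11 (SE, adjusted p = 0.000291) on TPM. The scaled Gabarapl1 value stayed between 0.40 and 0.51 and past the threshold with any 1 library left out. Map1lc3a rose from 174 ± 25.0 to 308 ± 29.5 TPM (SD, n = 4), with 302, 315, 271 and 342 TPM in the older WT muscles, all above the younger ones. Its scaled difference with age was 0.55 ± 0.15 (SE, limma adjusted p = 0.0271), lost with Y-linked RNA as a covariate (0.45, adjusted p = 0.0780) and without 6-month WT replicate 2 or 3 or 24-month WT replicate 1, 2 or 4. Map1lc3b, at 75.4, 74.4, 65.9 and 76.5 TPM in the older WT muscles, rose by 0.37 ± 0.08 (SE, limma adjusted p = 0.00735) on TPM and had a scaled difference of 0.09. Gabarap (96.1, 109, 86.4 and 108 TPM) and Gabarapl2 (58.4, 58.6, 52.7 and 64.1 TPM) overlapped with the younger WT muscles and passed on neither scale.

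Sqstm1 reached 288, 308, 266 and 383 TPM in the older WT muscles, a mean of 311 ± 50.7 (SD, n = 4), all above the younger ones. The scaled levels were 272, 306, 271 and 356 TPM against 241, 206, 190 and 244, and the scaled difference was 0.45 ± 0.11 (SE, limma adjusted p = 0.0184), lost without 6-month WT replicate 3 or 24-month WT replicate 4. Nbr1, at 28.2, 24.8, 27.5 and 30.5 TPM, was also above every younger WT muscle, with a scaled difference of 0.27 ± 0.08 (SE, limma adjusted p = 0.0375) that fell out without 6-month WT replicate 1, 3 or 4 or 24-month WT replicate 1, 3 or 4, or with Y-linked RNA as a covariate (adjusted p = 0.0694). Optn, Tax1bp1 and Bnip3 rose on TPM alone, by 0.53, 0.44 and 0.43. Sqstm1 took 40.2 to 44.1% of the receptors' summed TPM in the younger and 46.0 to 52.4% in the older WT muscles, without overlap.

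Atg13 measured 14.9, 14.1, 13.8 and 15.0 TPM in the older WT muscles, all above the 8.15 to 12.5 TPM of the younger ones. On scaled TPM it was 14.1, 14.0, 14.0 and 13.9 against 11.8, 12.4, 11.3 and 11.4, a narrow spread at both ages, with a difference of 0.25 ± 0.07 (SE, limma adjusted p = 0.0271) that was lost without 6-month WT replicate 1, 3 or 4 or any 24-month WT library. Atg4d was the only member lower with age on scaled TPM, at 20.8, 23.4, 20.9 and 21.4 against 26.5, 24.7, 28.1 and 30.1. That difference of -0.34 for Atg4d (limma adjusted p = 0.0434) held in 6 of 16 fits with 1 library left out, was lost without 6-month WT replicate 1, 3 or 4, 6-month UBR4 mKO replicate 2, 3 or 4, 24-month WT replicate 1, 3 or 4 or 24-month UBR4 mKO replicate 2, and had an adjusted p of 0.112 with Y-linked RNA as a covariate. The kinase Ulk1 and the subunit Pik3c3 rose with age on TPM, by 0.55 and 0.38, and so did Uvrag, Ambra1, Wipi2, Atg2b, Atg4a and Atg12, by 0.26 to 0.53. Denervation genes moved in the same comparison: all 5 tested rose on TPM and 4 on scaled TPM, with a sum of 50.7 to 85.2 TPM in the older WT muscles. Of the leukocyte markers 1 of 4 rose on both scales, with a list sum of 19.8 to 49.0 TPM. On scaled TPM 4 of 5 endothelial markers fell (Pecam1, Cdh5, Tek and Emcn, by 0.38 to 0.57), 2 of 6 fibroblast markers fell (Col1a1 by 2.18 and Col1a2 by 1.80) and Fabp4 of 3 adipocyte markers fell by 0.58. Of the myofiber markers Myh2 (-1.54), Myh1 (-0.64) and Mb (-0.55) fell and Myh4 (0.42) rose, and the Schwann cell and blood lists had 0 called on scaled TPM. Their part in the age differences was not tested. The 2 comparisons share the 6-month WT muscles, so a high or low value in these 4 libraries enters both.

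**Figure D3:**
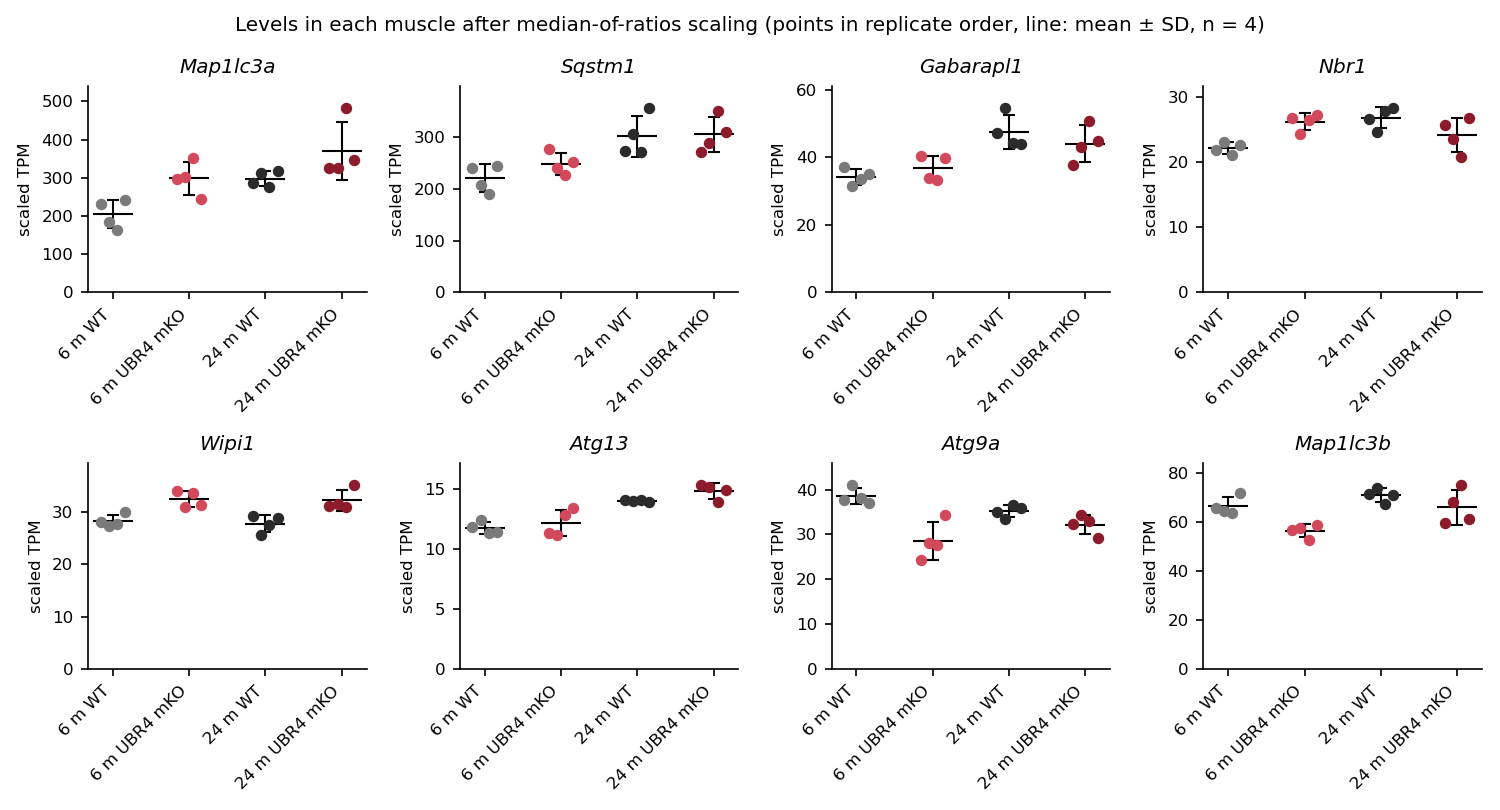
Scaled TPM (y axis, from 0) of 8 genes in each of the 16 muscles, by group (x axis), with points for the replicates and lines for the mean and SD (n = 4). Map1lc3a, Sqstm1, Gabarapl1, Nbr1 and Atg13 are higher in the 24-month than in the 6-month WT, and Atg9a and Map1lc3b are lower in the 6-month UBR4 mKO than in the 6-month WT.

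The promoters of 4 of these genes are given to show what lies before a gene that fell relative to the median gene in the UBR4 mKO (Ulk2), one that rose relative to it with age in both genotypes (Atg13) and a pair that rose relative to it with age in WT (Gabarapl1 and Sqstm1). The Ulk2 call was kept in only 8 of the 16 fits that left out 1 library. Each is the 250 bases before the RefSeq start on GRCm38.p6, 5′ to 3′ on the strand of the gene: Ulk2 at chr11:61855093-61855342 (minus strand), Atg13 at chr2:91710593-91710842 (minus), Gabarapl1 at chr6:129532942-129533191 (plus) and Sqstm1 at chr11:50210821-50211070 (minus). Capitals mark a match to TGACNNNGC, the core of the antioxidant response element, on either strand.
Ulk2: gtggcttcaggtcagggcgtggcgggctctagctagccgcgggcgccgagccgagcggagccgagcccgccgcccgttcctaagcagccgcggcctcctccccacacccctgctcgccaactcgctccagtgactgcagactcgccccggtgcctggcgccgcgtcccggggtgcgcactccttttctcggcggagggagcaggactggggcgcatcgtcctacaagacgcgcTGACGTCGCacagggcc
Atg13: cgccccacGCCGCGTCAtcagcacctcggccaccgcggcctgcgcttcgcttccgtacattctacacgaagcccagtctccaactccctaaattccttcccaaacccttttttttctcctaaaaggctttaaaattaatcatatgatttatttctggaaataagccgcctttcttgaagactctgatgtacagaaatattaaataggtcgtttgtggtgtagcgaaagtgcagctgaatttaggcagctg
Gabarapl1: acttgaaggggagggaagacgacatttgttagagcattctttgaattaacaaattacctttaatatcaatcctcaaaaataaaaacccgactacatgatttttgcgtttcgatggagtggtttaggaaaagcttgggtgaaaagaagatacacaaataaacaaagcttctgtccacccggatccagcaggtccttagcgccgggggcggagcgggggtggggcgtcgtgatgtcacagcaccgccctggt
Sqstm1: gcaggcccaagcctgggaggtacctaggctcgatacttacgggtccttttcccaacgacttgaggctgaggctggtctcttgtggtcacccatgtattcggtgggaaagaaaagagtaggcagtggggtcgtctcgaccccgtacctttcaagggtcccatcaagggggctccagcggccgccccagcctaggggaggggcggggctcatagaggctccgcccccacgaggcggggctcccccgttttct

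Promoters were at hand for 34 of the 42 genes, without Map1lc3a. TGACNNNGC, searched on both strands, was in those of 4 of the 34 genes (11.8%), Ulk2, Atg13, Vmp1 and Tax1bp1, against 11.5% of the 26996 genes with a promoter in the table (10.2% of all 32817 promoters of this length). It began 17 bases before the start in Ulk2 and 242 bases before it in Atg13. CACGTG, the palindromic core of the E-box that TFEB and its relatives bind, was also in those of 4 genes (11.8%), Atg3, Atg5, Atg7 and Bnip3, against 6.86% of all such genes (6.02% of promoters), and GTAAACA, a forkhead core, in those of 0 of the 34 genes against 3.53% (3.16% of promoters). The windows of Gabarapl1 and Sqstm1 hold none of the 3 motifs, which says only that these letters are not in these 250 bases. Those of Atg9a, Atg4d and Map1lc3b, the other genes that fell on scaled TPM at 6 months, hold none either. A match is a description of the sequence, and no factor binding was measured.

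At 24 months no member passed the test between the genotypes. Ubr4 measured 10.1, 14.6, 4.28 and 7.63 TPM in the UBR4 mKO muscles of this age, and at least 17.0 TPM in the WT. The loss of Ubr4 RNA was thus uneven, and replicate 2 lay close to the WT. The same 4 libraries enter the age comparison within the UBR4 mKO and the interaction. Of the 42 genes 0 were called in either direction on TPM (0.630% of all genes) and 0 on scaled TPM (0.913% of all genes) by limma, while 3 on TPM and 5 on scaled TPM had an unadjusted p under 0.05, and Dunn's test also called 0, with 1 and 4 at an unadjusted p under 0.05. The median of the 42 genes was -0.013 on TPM. Map1lc3a had the largest difference of the 42 genes on TPM, with 365, 339, 446 and 385 TPM in the UBR4 mKO against 302, 315, 271 and 342 TPM in the WT, 384 ± 45.7 against 308 ± 29.5 (SD, n = 4). The lowest UBR4 mKO muscle lay just below the highest WT muscle on TPM and just above it on scaled TPM (326 against 318), and the differences were 0.32 (limma adjusted p = 0.304) on TPM and 0.30 (adjusted p = 0.396) on scaled TPM. Wipi1 measured 34.6, 32.7, 28.6 and 39.2 TPM in the UBR4 mKO and 30.9, 25.8, 27.0 and 30.9 TPM in the WT, with overlap on TPM and none on scaled TPM, and a scaled difference of 0.21 (limma adjusted p = 0.141). Ulk1 was lower in every UBR4 mKO muscle on both scales, at 22.3, 21.2, 15.9 and 21.9 TPM against 24.3, 26.8, 22.5 and 24.2 TPM in the WT, and its scaled difference was -0.30 (limma adjusted p = 0.163), of about the same size as that of Map1lc3a. Ulk2 had a scaled difference of -0.29 (adjusted p = 0.197) with overlapping groups. Both counts of members called were 0 without the 2 libraries that stood apart, and without UBR4 mKO replicate 1 the scaled count was 1.

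Atg4a measured 25.8, 25.5, 21.5 and 26.9 TPM in the UBR4 mKO and 22.3, 21.1, 19.7 and 23.2 TPM in the WT, and these groups overlapped. Its scaled levels of 23.1, 24.6, 23.2 and 24.2 TPM lay above those of the WT, which were at most 21.5 (limma adjusted p = 0.330). Sqstm1 was 303, 300, 324 and 344 TPM in the UBR4 mKO, 318 ± 20.5 (SD, n = 4), with a difference of 0.04 on TPM. Nbr1 was 28.8, 24.5, 19.3 and 29.9 TPM, Ulk2 33.7, 27.1, 18.4 and 24.7 TPM and Epg5 9.12, 8.56, 4.21 and 9.34 TPM, the third value being lowest in all 3 genes and coming from the library in which several long genes were low. Gabarapl1, at 42.1, 44.7, 46.9 and 50.0 TPM, and Map1lc3b, at 66.4, 70.5, 69.5 and 68.1 TPM, both overlapped with the WT of the same age. Atg9a was 36.1, 35.8, 30.5 and 32.5 TPM against 37.1, 33.8, 36.0 and 38.7 TPM in the WT, and Atg101 34.3, 34.0, 34.5 and 31.7 against 27.4, 27.9, 28.4 and 32.5 TPM. Leukocyte markers summed to 44.6 to 86.7 TPM in the UBR4 mKO and 19.8 to 49.0 TPM in the WT at this age, with 0 of 4 called. Fabp4, an adipocyte marker, was the only marker of these lists called, on TPM (0.39, limma adjusted p = 0.0474) but not on scaled TPM (adjusted p = 0.156). Their part in the levels was not tested.

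Within the UBR4 mKO, 24 against 6 months, 0 of the 42 genes were called on TPM in either direction (6.29% of all genes), with 5 at an unadjusted p under 0.05 and 0 called by Dunn's test. On scaled TPM 2 were higher, Atg13 and Atg4a (4.76%, against 5.97% of all genes), and 0 were lower (5.30% of all genes). Atg13 had scaled levels of 11.3, 11.1, 12.8 and 13.4 TPM at 6 months and 15.3, 15.1, 13.9 and 14.9 TPM at 24 months. The older muscles were all above the younger ones, by 0.29 ± 0.07 (SE, limma adjusted p = 0.0130), a call lost without 6-month UBR4 mKO replicate 2, in a fit of the 2 groups alone (adjusted p = 0.0962), by Dunn's test (adjusted p = 0.212) and after rescaling without the mitochondrial genes (0.25, adjusted p = 0.174). For Atg13 the difference was 0.36 (adjusted p = 0.00221) without the 2 libraries that stood apart. Atg4a had scaled levels of 19.8, 18.9, 20.5 and 17.0 TPM and 23.1, 24.6, 23.2 and 24.2 TPM, again without overlap, and differed by 0.32 ± 0.08 (SE, limma adjusted p = 0.0192), or 0.24 (adjusted p = 0.0630) with Y-linked RNA as a covariate. The Atg4a call was lost without 6-month UBR4 mKO replicate 2 or 4 or 24-month replicate 2, and after rescaling without the mitochondrial genes (adjusted p = 0.0898). The scaled count of 2 was 0 without 6-month UBR4 mKO replicate 2, 4 without 24-month UBR4 mKO replicate 1 and 1 without its replicate 2, and without the 2 libraries that stood apart 0 were called on TPM and 5 rose and 1 fell on scaled TPM. The LC3 family's median lay 0.207 and the receptors' 0.112 above that of all genes on TPM. Other markers moved in the same comparison on scaled TPM: 4 of 5 endothelial markers fell (by 0.40 to 0.65), 3 of 6 fibroblast markers fell (Col1a1, Col1a2 and Col3a1, by 1.10 to 1.90), 1 of 3 adipocyte markers rose (Cidec, 1.55), and of the myofiber markers Myh2 (-2.07) and Myh1 (-0.72) fell and Myh4 (0.44) rose. The leukocyte, Schwann cell, blood and denervation lists had 0 called, and the part of these markers in the differences was not tested.

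Whether the genotype difference changed with age was tested directly by the interaction. On TPM 1 of the 42 genes, Nbr1, was lower (2.38%, against 4.58% of all genes) and 15 had an unadjusted p under 0.05, while on scaled TPM 0 were called in either direction (1.99% of all genes), with 4 at an unadjusted p under 0.05. The median of the 42 genes was -0.31, the same as that of all genes to 2 decimals. For Nbr1 the difference between UBR4 mKO and WT changed from 6 to 24 months by -0.73 ± 0.19 on the log2 scale (SE, limma adjusted p = 0.0398), and by -0.39 (adjusted p = 0.0761) on scaled TPM. Nbr1 was above the WT at 6 months, and at 24 months its mean was 25.6 TPM in the UBR4 mKO and 27.8 TPM in the WT. Without the 2 libraries that stood apart the Nbr1 interaction was -0.54 (adjusted p = 0.0802), and with 1 library left out the adjusted p ran from 0.0117 to 0.0891 and was past the threshold in 5 of 16 fits. The count of 1 was 0 in most of these fits, 14 without 6-month WT replicate 2 and 2 without 24-month WT replicate 3 or 24-month UBR4 mKO replicate 3 or 4. On scaled TPM it was 1 without 24-month UBR4 mKO replicate 4. Without the 2 libraries that stood apart the counts were 1 on each scale, and they were other genes: Map1lc3a on TPM, with an interaction of -0.72 (limma adjusted p = 0.0207) after -0.58 (adjusted p = 0.0507) in all 16 libraries, and Atg9a on scaled TPM, with 0.39 (adjusted p = 0.0438) after 0.31 (adjusted p = 0.198). Denervation genes moved in the same test, 4 of 5 being lower on TPM (Myog, Runx1, Gadd45a and Ncam1) and 2 on scaled TPM (Myog, -2.33, and Runx1), as was the myofiber marker Acta1 on TPM (-0.54). Their part in the interaction was not tested.

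**Figure D4:**
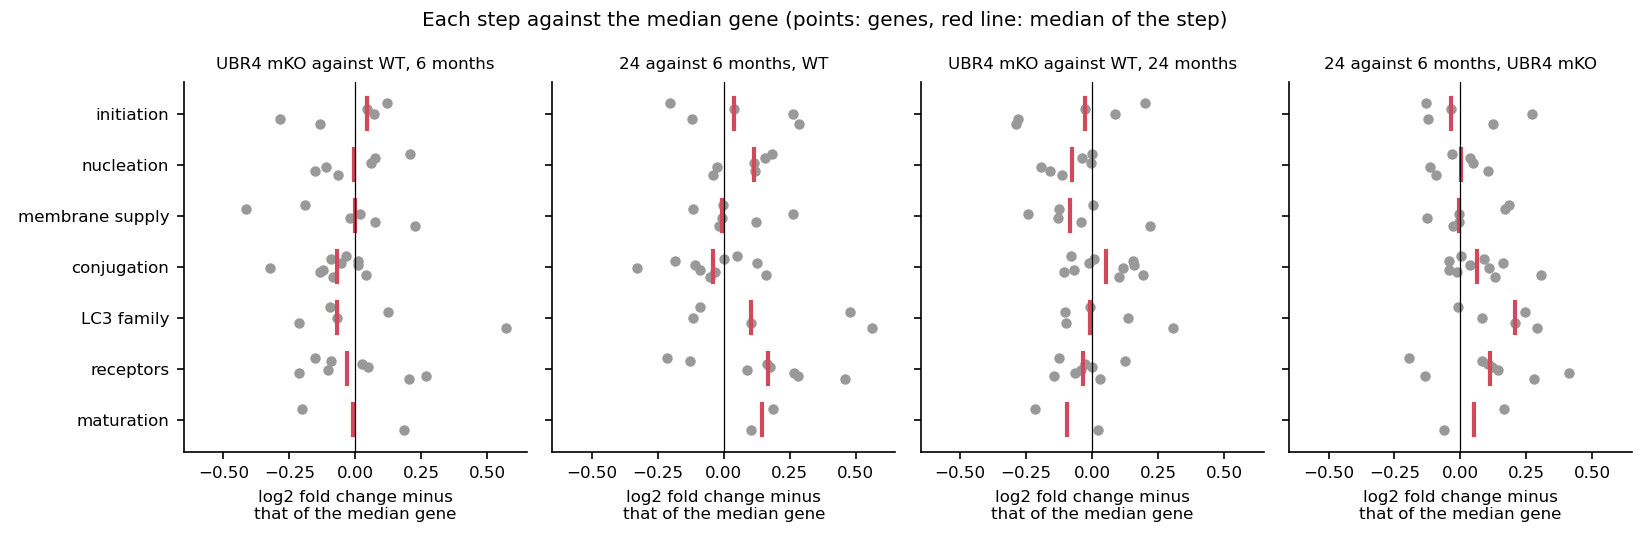
Log2 fold change on TPM minus that of the median gene (x axis) for each gene of the 7 steps (y axis) in the 4 comparisons, with the median of each step as a red line. At 6 months the medians lie between -0.071 and 0.042, and with age in WT those of the receptors (0.168), maturation (0.145), nucleation (0.116) and the LC3 family (0.102) lie above the median gene.

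Other genes of the pathway were followed by list, 70 in all, of which 68 were tested. At 6 months 31 rose and 0 fell in the UBR4 mKO on TPM (45.6% higher, against 43.7% of all genes), and 6 rose and 6 fell on scaled TPM (8.82% each, against 6.66% and 10.2%), so these shares are near those of all genes. Hspb8, a small heat shock protein that works with Bag3 and Hspa8 in chaperone-assisted autophagy of the Z-disc, measured 192, 184, 164 and 152 TPM in the WT and 416, 403, 412 and 370 TPM in the UBR4 mKO. The groups were far apart, and the difference was 1.22 (limma adjusted p = 1.17e-05) on TPM and 0.86 (adjusted p = 0.000823) on scaled TPM. Stbd1, a receptor for glycogen, rose from 27.4 to 36.9 TPM to 57.7 to 81.4 TPM (0.63 on scaled TPM). Tbk1, the kinase that phosphorylates receptors including optineurin and p62, rose from 4.18 to 6.78 TPM to 8.62 to 9.86 TPM (0.39 on scaled TPM). Prkaa1, a catalytic subunit of AMPK, Bag3 and Trp53inp2, a nuclear and cytosolic partner of LC3, also rose on both scales, by 0.48, 0.34 and 0.33 on scaled TPM.

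The 6 that fell on scaled TPM at 6 months were Pink1, the kinase that marks damaged mitochondria (-0.50), the forkhead factor Foxo4 (-0.49), the mTORC1 component Akt1s1 (-0.38), the GTPase Rheb (-0.37), which activates mTORC1, the fusion SNARE Snap29 (-0.38) and the tether subunit Vps41 (-0.29). The scaled calls for Hspb8, Stbd1, Tbk1, Prkaa1, Trp53inp2, Pink1, Foxo4, Rheb, Snap29 and Vps41 held with any 1 library left out, but rescaling without the mitochondrial genes left Foxo4 (-0.40, limma adjusted p = 0.0676) and Vps41 (-0.19, adjusted p = 0.133) short of the threshold. That for Bag3 was lost without 6-month WT replicate 1, 2 or 4 or UBR4 mKO replicate 1, 2 or 4, and that for Akt1s1 without WT replicate 1 or 4 or UBR4 mKO replicate 1, 2 or 3. By list on TPM, 4 of 5 chaperone-assisted, 7 of 8 tested other factors, 7 of 12 mitophagy and selective, 8 of 23 mTORC1 and AMPK, 5 of 12 fusion, 0 of 6 transcription factors and 0 of 2 atrophy ligases were higher.

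With age in WT 26 of the 68 rose and 0 fell on TPM (38.2% higher, against 24.0% of all genes), and 7 rose and 1 fell on scaled TPM (10.3% and 1.47%, against 4.44% and 5.33%). Deptor, an inhibitor of mTOR, went from 4.11 to 6.85 TPM to 11.2 to 13.3 TPM, with a scaled difference of 0.95. Hspb8 (0.80) and Tbk1 (0.42) rose on scaled TPM here too, and the calls of these 3 held with any 1 library left out, while those of Prkag3, Prkab2, Flcn and Zfyve1 (0.57, 0.51, 0.46 and 0.38) and of Phb2, which fell by 0.31, each depended on single libraries. Each of those calls was also lost with Y-linked RNA as a covariate (limma adjusted p from 0.0507 to 0.107). That of Zfyve1 was lost after rescaling without the mitochondrial genes as well (limma adjusted p = 0.0509). Both atrophy ligases, Fbxo32 and Trim63, rose on TPM. At 24 months 0 of the 68 were called between the genotypes on either scale.

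Within the UBR4 mKO 0 rose and 2 fell with age on TPM (Trp53inp2 and Prkaa1, 2.94%, against 3.85% of all genes), and 3 rose and 4 fell on scaled TPM (4.41% and 5.88%, against 5.97% and 5.30% of all genes). Trp53inp2 fell by 0.56 (limma adjusted p = 0.000466) on scaled TPM and Prkaa1 by 0.45, and Plekhm1, which links autophagosomes to the fusion machinery, rose by 0.36, all 3 with any 1 library left out. After rescaling without the mitochondrial genes Plekhm1 missed the threshold (0.33, limma adjusted p = 0.116). Prkab2 (0.49), Snap29 (0.30), Sesn1 (-0.57) and Trp53inp1 (-0.58) passed in the full set but not without some single libraries, nor after rescaling without the mitochondrial genes (limma adjusted p = 0.126, 0.0808, 0.0632 and 0.0921). Without the 2 libraries that stood apart Sesn1 (-0.46, adjusted p = 0.108) and Trp53inp1 (-0.46, adjusted p = 0.0835) also missed the threshold. For the interaction 0 were higher and 6 lower on TPM (8.82%, against 4.58% of all genes), and 0 higher and 2 lower on scaled TPM (2.94%, against 1.99% of all genes in either direction), Hspb8 (-0.78) and Tbk1 (-0.53), each held in at most 3 of 16 fits with 1 library left out. No transcription factor of the list was called on TPM in any comparison.

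On GRCm38, by the GENCODE M21 annotation, Map1lc3a lies at chr2:155276297-155278073 (plus strand), Gabarapl1 at chr6:129533160-129542346 (plus), Map1lc3b at chr8:121590361-121598760 (plus), Sqstm1 at chr11:50199366-50210827 (minus), Nbr1 at chr11:101552149-101581951 (plus), Wipi1 at chr11:109573331-109611967 (minus), Atg9a at chr1:75180860-75192196 (minus), Atg13 at chr2:91674618-91710576 (minus), Ulk2 at chr11:61775649-61855073 (minus), Atg4a at chrX:140956907-141164270 (plus) and Atg4d at chr9:21265293-21277772 (plus). Exons of Atg4d overlap those of Kri1 on the other strand over 1405 bases, and Kri1 was listed at 2.65 to 5.46 TPM. Exons of Becn1 overlap those of Cntd1 over 3104 bases on the other strand, and those of Uvrag overlap Gm45187 over 1589. Those of Sqstm1 overlap Mrnip over 580, those of Rb1cc1 4732440D04Rik over 558 and those of Bnip3 Gm45507 over 504. Those of Atg2b overlap Gskip over 383, those of Atg14 Gm49004 over 239 and those of Tax1bp1 Gm43966 over 160. Vmp1, Optn and Map1lc3b have overlaps of under 100 bases. Exons of Atg9a overlap Gm29253 on the same strand over 1832 bases, at no more than 0.362 TPM of Gm29253. Those of Gabarapl1 overlap 1700101I11Rik on the other strand over 570 bases, at no more than 1.01 TPM of 1700101I11Rik. Atg4a has a near copy, Atg4a-ps, with 99.3% identity over 96.0% of the transcript and at most 0.223 TPM, and Rb1cc1 a processed pseudogene, Gm13961, with 94.8% identity over 62.7%, which was listed at 0 in every library. How reads in such stretches were divided is not given in the sources used here, so the values of these genes are uncertain to that extent.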

How the data were processed

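RNA-seq of the tibialis anterior of 16 mice had been aligned to GRCm38 (mm10 per the labels) with CLC Genomics Workbench and deposited by the authors as 1 table of TPM per gene and sample, in which every sample sums to the same total. The annotation, and the treatment of strand and of reads with several matches, are not given in the sources used here. The labels name a stranded mRNA kit and the study's methods an unstranded version and another instrument. TPM keeps no depth, so no interval from counts was possible.

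Groups came from the labels, with 4 samples of individual mice each, all of which were used, although the study's text names fewer replicates per group for its RNA-seq. TPM was taken as log2(TPM + 0.1), so fold changes are on that scale and are understated for low genes, and genes with a mean of at least 1 TPM (10628 of 47643) were fitted with limma 3.58.1 (trended variance, 1 coefficient per group, R 4.3.3). The adjusted p is Benjamini-Hochberg over all genes tested, with 0.05 as the threshold, for 5 contrasts. The same fit was run after median-of-ratios scaling over the 14470 genes above 0 in every sample. The 42 genes and all lists were chosen with earlier results of these data known. Values in every sample are given for genes called on scaled TPM, the gene of each step with the highest mean over all samples and the LC3 family, and other pathway genes are named where called on scaled TPM or where 5 or fewer were counted. The fits were tested on simulated data.

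Within groups, replicates correlated at 0.965 to 0.993 and none were identical. Replicate numbers did not pair the samples: 4 of 16 pairs of deviations correlated above 0.1, from -0.155 to 0.181. Alternatives were other pseudocounts and filters, scaling without the 37 mitochondrial genes, array weights, 2-group fits, the replicate block, Dunn's test, each sample left out, and, added after seeing the data, Y-linked RNA as a covariate and leaving out the 2 libraries that stood apart. The p of Dunn's test was adjusted over all genes tested, with no Kruskal-Wallis threshold before it. Promoter sequences are from RefSeq (GRCm38.p6), gene positions from GENCODE M21, and near copies from blastn 2.17.0. Figures were drawn with matplotlib 3.10.9 in Python 3.11.15.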

Additional observations from a re-analysis of the deposited data

Results flagged for a closer look

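In 11 of the 168 sets of 4 replicates (42 genes in 4 groups) the highest or lowest muscle stood far from the other 3 by Dixon's criterion on TPM, where chance would give about 1 in 20, or 8.4. In UBR4 mKO replicate 4 at 6 months, the library with the most Xist, Ulk1 was 24.3 TPM against 16.8 to 18.1 in the others, Pik3c3 7.33 against 5.71 to 5.94 and Atg4b 5.12 against 4.57 to 4.64. In UBR4 mKO replicate 2 at 6 months Wipi1 was 32.4 TPM against 35.9 to 36.6 and Atg3 11.2 against 12.0 to 12.1. In the 24-month WT, Becn1 was 13.2 TPM in replicate 3 against 14.4 to 14.6, Atg2b 5.12 in replicate 4 against 4.47 to 4.58, Atg7 3.17 in replicate 4 against 2.42 to 2.53, and Epg5 7.16 in replicate 2 against 9.06 to 9.24. In the 24-month UBR4 mKO, Becn1 was 12.3 TPM in replicate 2 against 13.4 to 13.6, and Epg5 4.21 in replicate 3 against 8.56 to 9.34.

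The genotype difference of Nbr1 was above 0 at 6 months and slightly below 0 at 24 months, with an interaction of -0.73 on log2 TPM (limma adjusted p = 0.0398), and this was the only one of the 42 genes past the threshold for the interaction. It missed the threshold on scaled TPM (-0.39, adjusted p = 0.0761), with no filter on low values (adjusted p = 0.0681), with the replicate block (adjusted p = 0.0591) and without the 2 libraries that stood apart (adjusted p = 0.0802).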

How the results depend on the processing

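The count of members called moved by over 1.5 times with the scaling, array weights, Dunn's test and single libraries, among other settings. Against 23, 17, 0 and 1 members on TPM (6 months, age in WT, age in UBR4 mKO, interaction), median-of-ratios scaling gave 7, 6, 2 and 0, and leaving out the mitochondrial genes 4 at 6 months, 4 with age in WT and 0 in the interaction. Array weights gave 33 for age in WT, 4 for age in UBR4 mKO and 6 for the interaction. Dunn's test gave 9 at 6 months and 0 for age in WT. For the interaction no filter gave 0, a minimum of 5 TPM gave 3 and the Y-linked covariate 2. With 1 library left out the TPM counts ran from 12 to 30 at 6 months, 7 to 31 for age in WT and 0 to 14 for the interaction, and stayed at 0 for the genotypes at 24 months and for age in UBR4 mKO.

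On scaled TPM the counts of 7, 6, 2 and 0 became 13, 12, 6 and 2 with array weights. Dunn's test gave 0 at 6 months, for age in WT and for age in UBR4 mKO, and the 2-group fit 0 for age in UBR4 mKO. Without the 2 libraries that stood apart the counts were 11 for age in WT, 6 for age in UBR4 mKO and 1 for the interaction. With 1 library left out they ran from 1 to 7 at 6 months, 0 to 1 at 24 months, 1 to 11 for age in WT, 0 to 4 for age in UBR4 mKO and 0 to 1 for the interaction.

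With the replicate number as a block, the count on TPM was 17 at 6 months, 13 with age in WT and 0 in the interaction, and on scaled TPM 4 at 6 months and 3 for age in WT. The numbers did not pair the samples.

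Of the 42 genes, 25 changed sign between TPM and scaled TPM at 6 months, 7 at 24 months, 18 with age in WT, 7 with age in UBR4 mKO and 22 in the interaction. Among genes called on either scale, the direction at 6 months turned under median-of-ratios scaling for Ulk2 (-0.31), Becn1 (-0.091), Atg3 (-0.11), Atg4d (-0.35), Atg5 (-0.013), Atg10 (-0.014), Atg12 (-0.12), Map1lc3b (-0.24), Gabarap (-0.098), Gabarapl2 (-0.12), Bnip3 (-0.0019), Bnip3l (-0.12) and Vps41 (-0.29), and for age in WT for Atg12 (-0.0095). Without the mitochondrial genes it turned, for such genes, at 6 months for Atg3 (-0.012), Atg4d (-0.25), Atg12 (-0.019), Gabarapl2 (-0.025), Bnip3l (-0.018), Ulk2 (-0.21), Map1lc3b (-0.14) and Vps41 (-0.19). These turns follow from removing the shift of the median gene, which TPM cannot separate from a change in total mRNA. Dunn's test and the 2-group fits give no interaction. Depth is unknown, and the source of Xist in libraries labelled male was not tested.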
